A study of Rattus norvegicus with 20 samples.

Results

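The genes described here are 9 rat genes whose liver mRNA was lower at higher doses of PBDE-47, a flame retardant of the polybrominated diphenyl ether class: Avpr1a, Depp1, Gdf11, Qsox1, Rasd2, Slc19a2, Plaat3, Slc25a22 and Pcmtd2. They were chosen by name from measured values of the same arrays, and most of them for a lower value at 50 mg/kg than in vehicle, so their lower values at the high dose are a description and not a finding. All 13 probe sets that carry the symbol of 1 of these genes alone are reported, out of 31042 probe sets tested and 14217 genes with such a probe set. In 4 of the 9 genes there were 2 probe sets, and in 5 there was 1.

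Liver RNA was hybridised to 20 Affymetrix rat expression arrays, 5 for each of 4 dose groups of Wistar Han rats, Crl:WI (Han). The groups were vehicle, in which dams received corn oil by gavage, and PBDE-47 in corn oil at 0.1, 15 and 50 mg/kg per day, given to the dams from gestation day 6 through postnatal day 4. All samples were labelled female, and the RNA came from the left lateral lobe at postnatal day 4. The labels do not say whether a liver was that of a dam or of a pup, whether tissue was pooled or whether replicates came from separate litters, so the intervals and p-values measure only the spread between these samples. A value is the deposited log2 RMA intensity, in which 1 unit is a doubling of signal.

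The 9 genes belong to no common pathway. Avpr1a encodes the V1a vasopressin receptor, which signals through Gq proteins and calcium and in rat liver drives glycogen breakdown, and Gdf11 encodes a secreted ligand of the TGF-beta family that binds activin type II receptors. Depp1 is a FOXO target known from human cells, Rasd2 encodes the small GTPase Rhes, known from the rat striatum, and Slc19a2 and Slc25a22 encode a thiamine transporter of the plasma membrane and a glutamate carrier of the inner mitochondrial membrane. Plaat3 encodes a phospholipase and acyltransferase studied in mouse adipose tissue, Qsox1 a sulfhydryl oxidase that forms disulfide bonds in proteins of the secretory pathway, and Pcmtd2 a protein with a domain like that of the isoaspartate repair methyltransferase.

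At 50 mg/kg against vehicle, 11 of the 13 probe sets, at least 1 from each of the 9 genes, were called lower (limma, Benjamini-Hochberg adjusted p under 0.05), where 0.348% of all probe sets were called lower; this is the comparison that chose most of them, and nothing is read from the count. The count was 3 to 11 when single arrays were left out, and it was 5 without replicate 2 of vehicle, 6 without replicate 4 and 7 without replicate 5 of that group. Among the 50 mg/kg arrays, leaving out replicate 1 or 2 gave 7, replicate 3 gave 5 and replicate 4 gave 3. At 15 mg/kg against vehicle 2 were called lower, Plaat3 and Slc25a22, against 0.0226% of all probe sets. The genes were chosen with the 15 mg/kg values known, so nothing is read from this count. Both calls were lost without vehicle replicate 4 or 5 or without 15 mg/kg replicate 1, 3 or 5, and 1 was lost without vehicle replicate 1 or 3, 0.1 mg/kg replicate 4, or 15 mg/kg replicate 2 or 4. Neither call at 15 mg/kg was made in a fit of the compared groups alone or without the 10 arrays high in muscle or pancreas transcripts. At 0.1 mg/kg no probe set of the array was called (0%, with 2134 at an unadjusted p under 0.05). By the slope over the 4 doses 11 were called lower, against 0.486% of all probe sets; the slope rests on the values that chose the genes, and nothing is read from this count either. Every array lay below every vehicle array in 8 of the 13 probe sets at 50 mg/kg and in 3 at 15 mg/kg, and in 1.18% and 0.754% of all probe sets. These values too were known when the genes were chosen, so both counts are a description. The median change of the 13 probe sets was -0.18, -0.50 and -0.75 on the log2 scale at 0.1, 15 and 50 mg/kg, while that of all probe sets was 0.01 at each dose.

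The group means took different shapes, grouped here after the values were seen. In Avpr1a, Depp1, Slc19a2, both probe sets of Qsox1 and probe set 1374706_at of Gdf11 the mean was lower at each higher dose. In Plaat3 and Slc25a22 the 0.1 mg/kg group lay near vehicle and the 15 and 50 mg/kg groups lay together below it, and on probe set 1370372_at of Rasd2 the mean was below vehicle at 15 and 50 mg/kg but not at 0.1 mg/kg. The other probe sets of Gdf11, 1393697_at, and Rasd2, 1370373_at, had no lower mean at any dose than in vehicle. In Pcmtd2 all 3 dosed groups lay below vehicle. A mean that was lower at each higher dose was found in 8 of the 13 probe sets, and in 7% of all probe sets. Those 8 include the probe set of Plaat3 and 1375916_at of Pcmtd2. The genes were chosen with the values at all doses known, so nothing is read from this count.

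**Figure D1:**
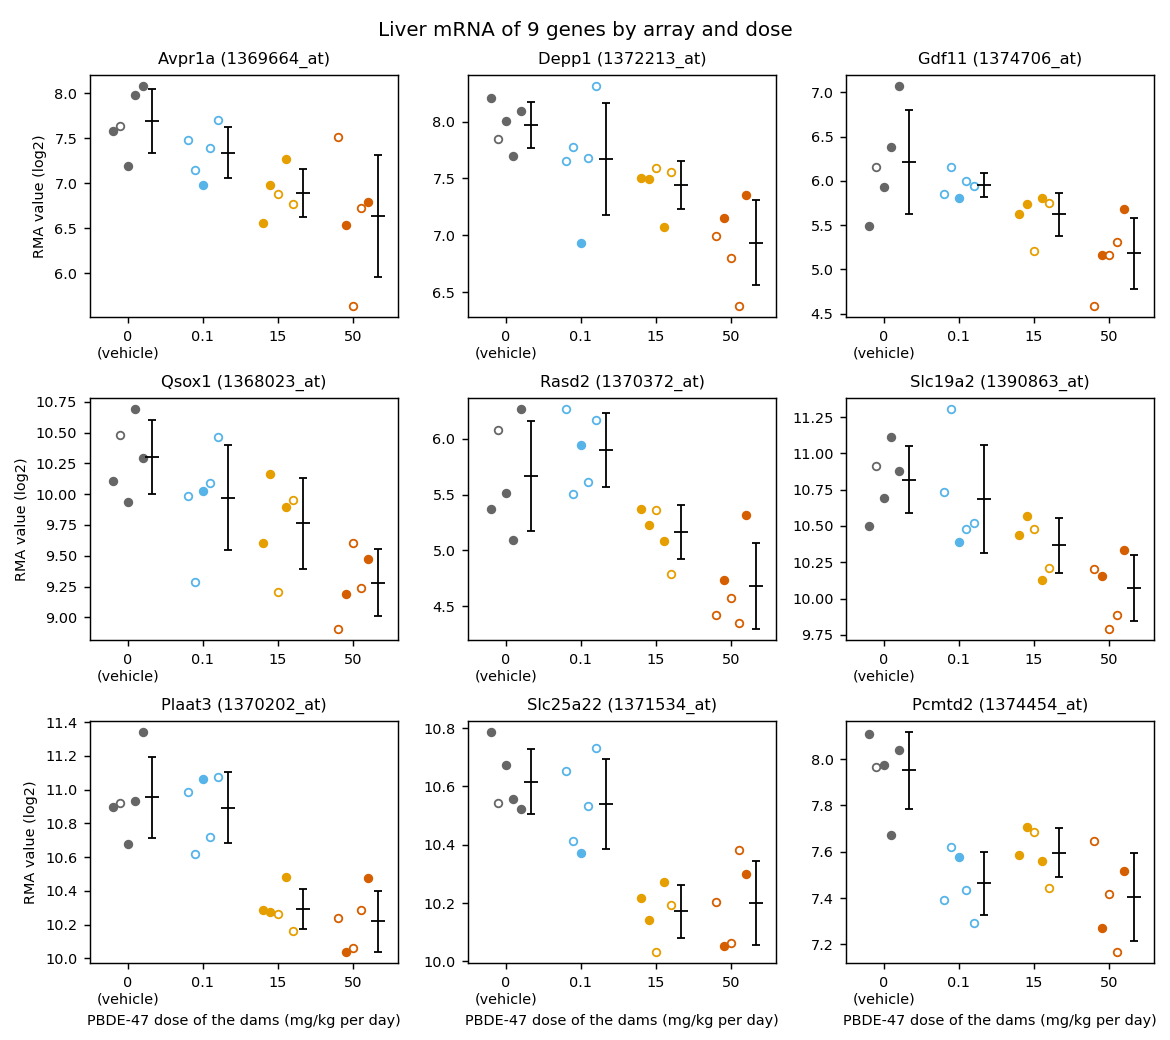
Deposited log2 RMA value (vertical axis, each panel with its own range) of 9 genes by dose of the dams in mg/kg per day (horizontal axis), with 1 point for each of the 5 arrays of a group and a black mark with bars for the mean ± SD. Open points are the 10 arrays high in muscle or pancreas transcripts. In Plaat3, the 15 and 50 mg/kg points lie between 10.04 and 10.48, below all vehicle and 0.1 mg/kg points, and in Avpr1a, Gdf11 and Rasd2 the 50 mg/kg and vehicle points overlap.

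The group means of 4 genes serve as examples of these shapes, picked after the values were seen, and a difference in shape was not tested. Plaat3 and Slc25a22 were lower at 15 and 50 mg/kg alike, and the mean of Depp1 was lower again at 50 than at 15 mg/kg. So were those of other members, such as Qsox1 on 1368023_at (-0.48) and Rasd2 on 1370372_at (-0.49). Pcmtd2 was low at every dose on 1374454_at, while on 1375916_at its mean was lower at each higher dose. The promoters of these 4 genes are printed as a description. Each is 250 bases before to 50 after the RefSeq gene start in GRCr8, 5′ to 3′ on the strand of the gene, with capitals for matches on either strand to 5 motifs searched in all 33469 such promoters: GTAAACA (forkhead), GCGTG (aryl hydrocarbon receptor core), CACGTG (E-box), AGGTCA (nuclear receptor) and TGACTCA (AP-1). Plaat3 is at chr1:214211629-214211928, plus strand, Slc25a22 at chr1:205965828-205966127, minus strand, Depp1 at chr4:151583121-151583420, plus strand, and Pcmtd2 at chr3:189337565-189337864, plus strand.
Plaat3: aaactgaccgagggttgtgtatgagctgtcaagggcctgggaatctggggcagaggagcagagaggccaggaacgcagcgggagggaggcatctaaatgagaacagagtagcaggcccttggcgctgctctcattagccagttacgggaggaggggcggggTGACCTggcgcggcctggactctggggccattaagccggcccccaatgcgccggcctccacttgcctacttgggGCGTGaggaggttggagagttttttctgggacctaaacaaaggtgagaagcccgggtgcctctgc
Slc25a22: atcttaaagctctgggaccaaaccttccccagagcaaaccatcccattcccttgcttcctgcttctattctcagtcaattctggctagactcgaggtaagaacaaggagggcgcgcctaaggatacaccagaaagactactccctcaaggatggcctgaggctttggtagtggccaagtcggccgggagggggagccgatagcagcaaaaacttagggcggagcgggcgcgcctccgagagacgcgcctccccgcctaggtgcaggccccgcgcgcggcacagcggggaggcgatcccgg
Depp1: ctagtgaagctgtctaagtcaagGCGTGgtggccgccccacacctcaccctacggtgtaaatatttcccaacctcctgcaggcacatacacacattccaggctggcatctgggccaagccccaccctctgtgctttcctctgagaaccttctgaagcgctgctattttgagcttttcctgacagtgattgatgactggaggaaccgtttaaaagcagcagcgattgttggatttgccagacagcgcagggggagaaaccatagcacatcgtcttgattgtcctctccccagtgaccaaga
Pcmtd2: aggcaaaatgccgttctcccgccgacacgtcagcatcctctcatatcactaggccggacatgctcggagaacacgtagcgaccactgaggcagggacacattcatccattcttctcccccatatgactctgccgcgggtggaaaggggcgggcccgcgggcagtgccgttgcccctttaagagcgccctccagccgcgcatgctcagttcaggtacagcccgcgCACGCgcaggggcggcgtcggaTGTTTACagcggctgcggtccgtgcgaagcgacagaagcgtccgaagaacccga
GCGTG was found in 6 of the 9 promoters (Depp1, Qsox1, Rasd2, Slc19a2, Plaat3 and Pcmtd2), and in 29.7% of all promoters. The 9 promoters held 52.7% to 80.7% G or C, and the median of all promoters was 51.7%. GTAAACA was found in that of Pcmtd2 (3.78% of all), AGGTCA in that of Plaat3 (16.2%) and TGACTCA in that of Slc19a2 (4.63%), while CACGTG was found in none of the 9 (6.42%). Matched stretches did not overlap, and a match is a description of these letters.

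Array medians lay between 5.605 and 5.648, and correlations between arrays between 0.98258 and 0.99528. Hepatocyte markers were high on every array (mean of 7 genes 13.75 to 13.99), as were markers of fetal liver (mean of 5 genes 11.24 to 11.83), and neuron and neuroendocrine markers were low (mean of 5 genes 3.45 to 3.64). The exposure marker Cyp1a1, a cytochrome P450 induced through the aryl hydrocarbon receptor, averaged 7.67 ± 0.30, 7.57 ± 0.27, 10.17 ± 0.51 and 11.13 ± 0.38 in vehicle and at 0.1, 15 and 50 mg/kg (SD, n = 5 each). Transcripts of skeletal muscle and exocrine pancreas, which are not liver cells, set some arrays apart: the mean of either list was more than 2 log2 units above that of the lowest array on 10 of the 20 arrays, 1 in vehicle, 4 at 0.1 mg/kg, 2 at 15 mg/kg and 3 at 50 mg/kg. All 8 markers of Kupffer cells, the macrophages of the liver, had a lower mean at 50 mg/kg than in vehicle, with a median change of -0.47, and the list mean was 9.20 to 9.65 at 50 mg/kg, against 9.73 to 10.00 in vehicle. Of these 8 markers 4 were called lower (limma), and the count was 1 without replicate 3 or 4 of vehicle or replicate 4 of 50 mg/kg, 2 without replicate 5 of vehicle or replicate 2 or 3 of 50 mg/kg, and 0 without the arrays high in muscle or pancreas transcripts. Of 7 erythroid and 3 neutrophil markers none was called, and at an unadjusted p under 0.05 there were 0 and 2; their median changes were -0.40 and -0.55. In bulk liver RNA, fewer cells of a type and less RNA per cell cannot be told apart, and the part of these cell types in the values below was not tested.

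Avpr1a, the vasopressin receptor, had probe set 1369664_at. Its values in replicates 1 to 5 were 7.58, 7.64, 7.19, 7.98 and 8.09 in vehicle and 7.48, 7.15, 6.99, 7.39 and 7.70 at 0.1 mg/kg. At 15 mg/kg they were 6.56, 6.98, 6.88, 7.27 and 6.77, and at 50 mg/kg 7.51, 6.53, 5.63, 6.72 and 6.79. At each of the higher doses 4 of 5 arrays lay below every vehicle array. The 50 mg/kg group was the most scattered, from 5.63 in replicate 3 to 7.51 in replicate 1, and that replicate 1 lay inside the vehicle range. The change against vehicle was -1.06 (SE 0.25, 95% interval -1.57 to -0.54) at 50 mg/kg, a level 2.08-fold lower. Without 50 mg/kg replicate 3 it was -0.81. With all arrays it was -0.80 at 15 mg/kg and -0.35 at 0.1 mg/kg. Its call at 50 mg/kg was kept in 4 of the 20 fits that left out 1 array, the fewest of the 11 probe sets called.

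Gdf11, the TGF-beta family ligand, was read by probe sets 1374706_at and 1393697_at. On 1374706_at the arrays read 5.49, 6.16, 5.93, 6.39 and 7.08 in vehicle and 5.85, 6.16, 5.81, 6.00 and 5.95 at 0.1 mg/kg. They read 5.62, 5.74, 5.21, 5.81 and 5.75 at 15 mg/kg and 4.58, 5.16, 5.16, 5.31 and 5.69 at 50 mg/kg. At 50 mg/kg 4 of 5 arrays lay below every vehicle array, and vehicle itself spanned 5.49 to 7.08. The change was -1.03 (SE 0.22, 95% interval -1.49 to -0.57) at 50 mg/kg, -0.58 at 15 mg/kg and -0.26 at 0.1 mg/kg, and the call at 50 mg/kg was kept in 14 of 20 fits. On 1393697_at all 20 arrays lay between 3.79 and 4.19, and the change at 50 mg/kg was 0.11 (SE 0.077, 95% interval -0.06 to 0.27).

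Rasd2, the gene of the GTPase Rhes, had probe sets 1370372_at and 1370373_at. On 1370372_at the values were 5.37, 6.08, 5.51, 5.10 and 6.27 in vehicle and 6.27, 5.51, 5.94, 5.61 and 6.17 at 0.1 mg/kg. Lower values followed at 15 mg/kg, 5.37, 5.23, 5.36, 5.08 and 4.78, and at 50 mg/kg, 4.42, 4.73, 4.57, 4.35 and 5.32. The 0.1 mg/kg group had the highest mean, every 15 mg/kg array lay below every 0.1 mg/kg array, and 4 of 5 arrays at 50 mg/kg lay below every vehicle array. Against vehicle the change was -0.99 (SE 0.22, 95% interval -1.44 to -0.54) at 50 mg/kg, -0.50 at 15 mg/kg and 0.23 at 0.1 mg/kg. On 1370373_at the arrays lay between 5.01 and 5.70 with no order by dose, and the change at 50 mg/kg was 0.00 (95% interval -0.22 to 0.22).

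Depp1, the FOXO target, had probe set 1372213_at. Vehicle arrays read 8.20, 7.84, 8.01, 7.70 and 8.10, and 0.1 mg/kg arrays 7.65, 7.78, 6.93, 7.68 and 8.32. The 15 mg/kg arrays read 7.50, 7.49, 7.59, 7.07 and 7.56, and the 50 mg/kg arrays 7.00, 7.15, 6.80, 6.37 and 7.35. Every array at 15 and at 50 mg/kg lay below every vehicle array, while the 0.1 mg/kg group spanned 6.93 to 8.32 and overlapped all others. The change was -1.04 (SE 0.20, 95% interval -1.45 to -0.62) at 50 mg/kg, or 2.05-fold lower, -0.53 at 15 mg/kg and -0.30 at 0.1 mg/kg. Between 50 and 15 mg/kg the change of Depp1 was -0.51 (95% interval -0.92 to -0.09).

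Slc19a2, the thiamine transporter, had probe set 1390863_at. It read 10.50, 10.91, 10.69, 11.11 and 10.88 in vehicle and 10.73, 11.31, 10.39, 10.48 and 10.52 at 0.1 mg/kg. Readings at 15 mg/kg were 10.44, 10.57, 10.48, 10.13 and 10.21, and at 50 mg/kg 10.20, 10.16, 9.79, 9.89 and 10.33. All 5 arrays at 50 mg/kg and 4 of 5 at 15 mg/kg lay below every vehicle array, and the 0.1 mg/kg group held the highest array of all, 11.31. The change was -0.75 (SE 0.15, 95% interval -1.07 to -0.42) at 50 mg/kg, -0.45 at 15 mg/kg and -0.13 at 0.1 mg/kg.

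Slc25a22, the mitochondrial glutamate carrier, had probe set 1371534_at. Vehicle values were 10.79, 10.54, 10.67, 10.56 and 10.52, and those at 0.1 mg/kg were 10.65, 10.41, 10.37, 10.53 and 10.73. Values were 10.22, 10.14, 10.03, 10.27 and 10.19 at 15 mg/kg and 10.20, 10.05, 10.06, 10.38 and 10.30 at 50 mg/kg. Every array at 15 and at 50 mg/kg lay below every vehicle array, and the lowest mean was that at 15 mg/kg. The change was -0.42 (SE 0.0831, 95% interval -0.59 to -0.24) at 50 mg/kg, -0.45 (SE 0.0831, 95% interval -0.62 to -0.27) at 15 mg/kg and -0.08 at 0.1 mg/kg. Between 50 and 15 mg/kg the difference was 0.03 (95% interval -0.14 to 0.20).

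Plaat3, the phospholipase and acyltransferase, had probe set 1370202_at. Vehicle arrays held 10.90, 10.92, 10.68, 10.93 and 11.34, and 0.1 mg/kg arrays held 10.98, 10.62, 11.07, 10.72 and 11.08. The 15 mg/kg arrays held 10.29, 10.27, 10.26, 10.48 and 10.16, and the 50 mg/kg arrays 10.24, 10.04, 10.06, 10.29 and 10.48. No array at 15 or 50 mg/kg reached the lowest array of vehicle or of 0.1 mg/kg. The change was -0.73 (SE 0.12, 95% interval -0.98 to -0.49) at 50 mg/kg, -0.66 (SE 0.12, 95% interval -0.90 to -0.42) at 15 mg/kg and -0.06 at 0.1 mg/kg, and 50 and 15 mg/kg differed by -0.07 (95% interval -0.32 to 0.17).

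Qsox1, the sulfhydryl oxidase, had probe sets 1368023_at and 1368024_at. On 1368023_at vehicle arrays read 10.10, 10.48, 9.94, 10.69 and 10.30, and 0.1 mg/kg arrays read 9.99, 9.29, 10.03, 10.09 and 10.47. The same probe set read 9.60, 10.16, 9.21, 9.90 and 9.95 at 15 mg/kg and 8.90, 9.19, 9.61, 9.24 and 9.47 at 50 mg/kg. All 50 mg/kg arrays lay below every vehicle array on both probe sets. The change on 1368023_at was -1.02 (SE 0.20, 95% interval -1.44 to -0.60) at 50 mg/kg, -0.54 at 15 mg/kg and -0.33 at 0.1 mg/kg. On 1368024_at it was -0.97 (SE 0.22, 95% interval -1.43 to -0.51), -0.57 and -0.37 at the same doses, with values of 8.69 to 10.07 in vehicle, 8.29 to 9.42 at 0.1 mg/kg, 8.34 to 9.16 at 15 mg/kg and 8.17 to 8.68 at 50 mg/kg.

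Pcmtd2, the gene with a repair methyltransferase domain, had probe sets 1374454_at and 1375916_at. On 1374454_at the vehicle values were 8.11, 7.97, 7.97, 7.67 and 8.04, and the 0.1 mg/kg values 7.39, 7.62, 7.58, 7.43 and 7.29. Those at 15 mg/kg were 7.59, 7.71, 7.68, 7.56 and 7.44, and those at 50 mg/kg 7.65, 7.27, 7.42, 7.17 and 7.52. It was the only 1 of the 13 probe sets on which every 0.1 mg/kg array lay below every vehicle array; 0.474% of all probe sets did so. The change was -0.49 (SE 0.10, 95% interval -0.69 to -0.29) at 0.1 mg/kg, -0.36 at 15 mg/kg and -0.55 (SE 0.10, 95% interval -0.75 to -0.35) at 50 mg/kg. On 1375916_at values were 8.69 to 8.94 in vehicle, 8.55 to 8.77 at 0.1 mg/kg, 8.33 to 8.73 at 15 mg/kg and 8.28 to 8.60 at 50 mg/kg, and the change was -0.18, -0.22 and -0.35 (SE 0.0777, 95% interval -0.51 to -0.19) at the same doses.

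**Figure D2:**
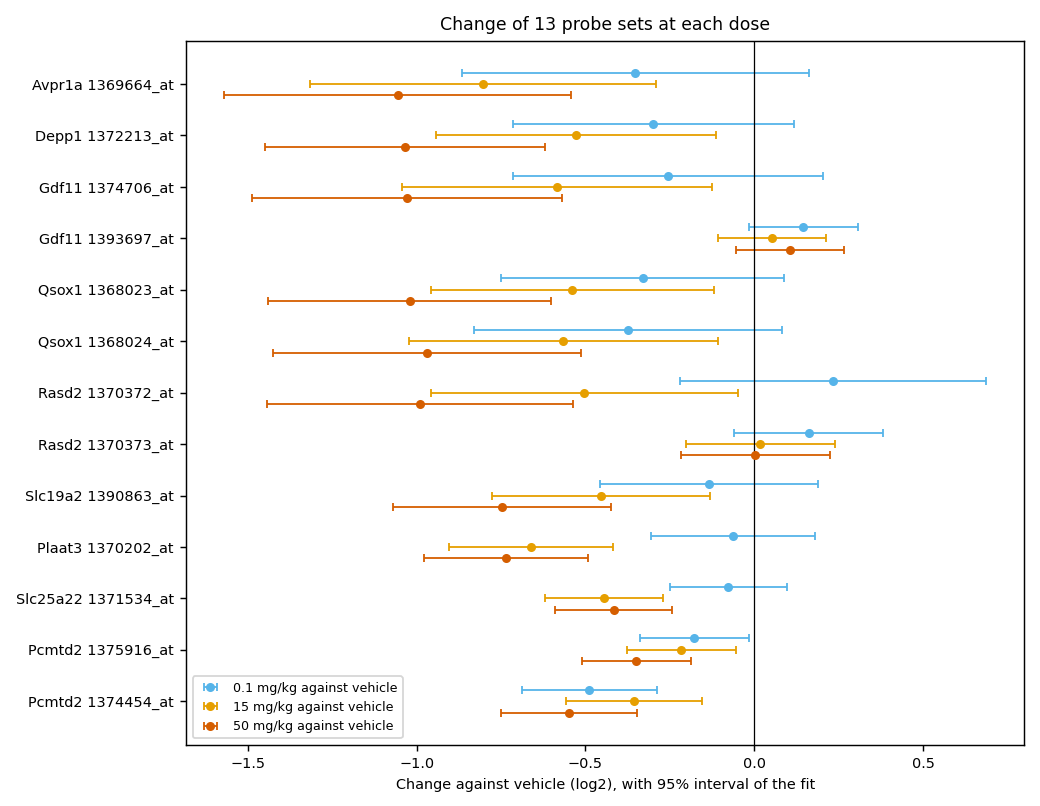
Change against vehicle (horizontal axis, log2) of the 13 probe sets (vertical axis) at 0.1, 15 and 50 mg/kg, as points with the 95% interval of the fit, with 0 marked by a line. The interval at 50 mg/kg lies below 0 in 11 probe sets and at 0.1 mg/kg in 2, both of them Pcmtd2.

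The 4 genes with 2 probe sets differed in how far the probe sets followed each other. The difference between the probe sets within an array moved little with dose for Qsox1, with means of 0.96, 1.01, 0.99 and 0.91 in vehicle and at 0.1, 15 and 50 mg/kg, and their deviations from the group means had a correlation of 0.92 over the 20 arrays. For Gdf11 the difference was 2.32, 1.92, 1.68 and 1.19, and for Rasd2 0.41, 0.49, -0.11 and -0.58, with correlations of 0.07 and -0.28. In both genes 1 probe set carried the change and the other stayed within a narrow range. The flat Gdf11 probe set was dim, with a mean of 3.96 over all arrays (percentile 24.2), where a fall may not show. Both Rasd2 probe sets, with means of 5.35 and 5.30, lay below the array medians. For Pcmtd2 the difference, 1375916_at minus 1374454_at, was 0.86, 1.17, 1.00 and 1.06, with a correlation of 0.42. Where each probe set lies on its transcript is not given in the sources used here.

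**Figure D3:**
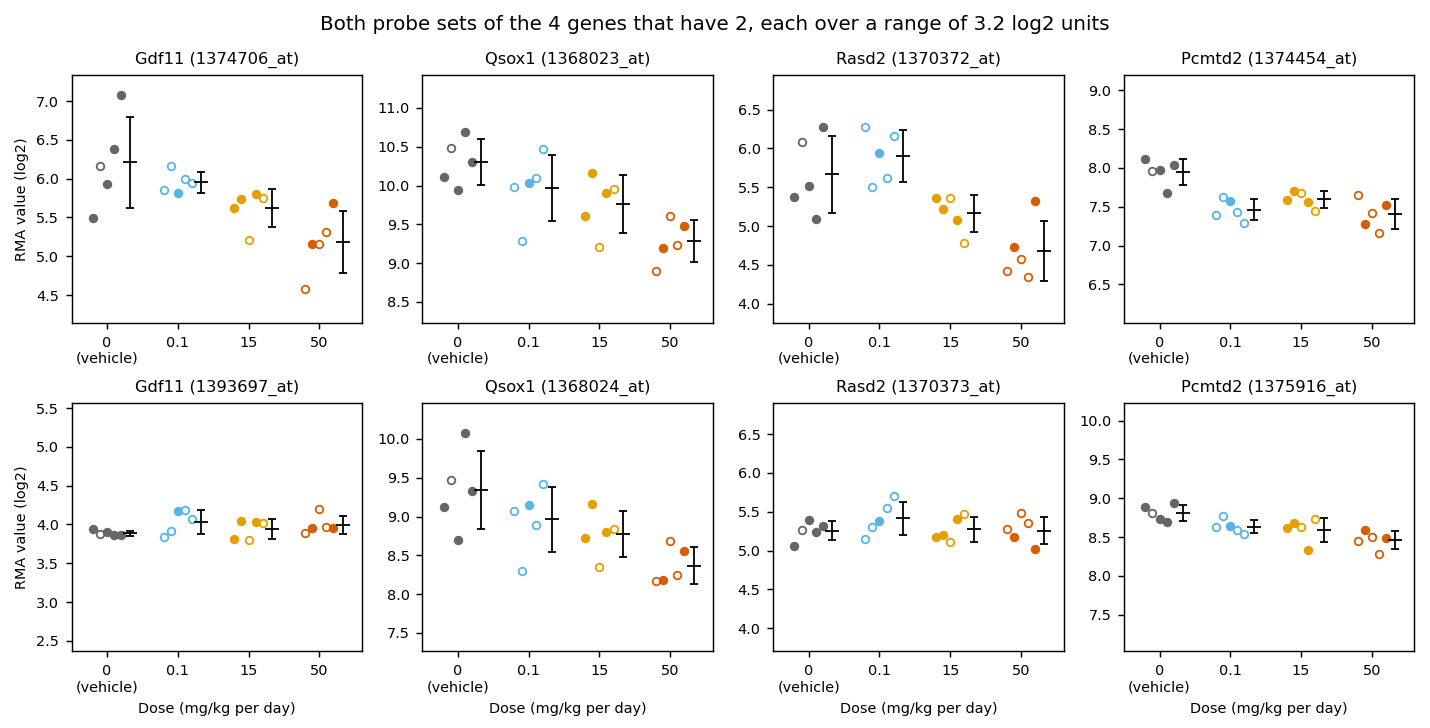
Log2 RMA value (vertical axis, every panel spanning 3.2 units) of both probe sets of Gdf11, Qsox1, Rasd2 and Pcmtd2 by dose in mg/kg per day (horizontal axis), with 1 point for each array, open where the array was high in muscle or pancreas transcripts, and the mean ± SD. Both Qsox1 probe sets are lower at 50 mg/kg than in vehicle, while Gdf11 1393697_at and Rasd2 1370373_at lie flat.

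The comparison of 15 with 0.1 mg/kg shares no array with that of 50 mg/kg and vehicle, and it was the only comparison in which a p is given, for the 6 genes chosen at 50 mg/kg against vehicle. They had 9 probe sets, and members were chosen with results from all arrays known. All 9 changes were negative, between -0.74 for Rasd2 on 1370372_at and -0.09 for Gdf11 on 1393697_at. None passed (limma, adjusted p 0.469 to 0.974), and 1, Rasd2 on 1370372_at, had an unadjusted p under 0.05. Avpr1a had a change of -0.45 (adjusted p = 0.93, limma), Slc19a2 -0.32 (adjusted p = 0.888, limma) and Depp1 -0.23 (adjusted p = 0.974, limma). Without the 10 arrays high in muscle or pancreas transcripts the change of Depp1 was 0.43, the opposite direction, with a lone 0.1 mg/kg array that is assumed to vary like the other groups. Across the array 0.00322% of probe sets, 1 probe set, were called lower here: Wtap, a part of the RNA methylation complex, fell by 0.42 (adjusted p = 0.0191, limma), and it was named after its value was seen. For the other 3 genes the change between 15 and 0.1 mg/kg is a description: that of Plaat3 was -0.60 (95% interval -0.84 to -0.36), that of Slc25a22 was -0.37 (95% interval -0.54 to -0.19), and those of Pcmtd2 were -0.04 on 1375916_at and 0.13 on 1374454_at. Every 15 mg/kg array lay below every 0.1 mg/kg array in 4 of the 13 probe sets, those of Plaat3, Slc25a22, Rasd2 (1370372_at) and Gdf11 (1374706_at), and in 0.358% of all probe sets. The genes were chosen with these values known, so nothing is read from this count.

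Because muscle and pancreas transcripts set 10 arrays apart, the changes were recomputed on the other 10, which are 2 at 50 mg/kg, 3 at 15 mg/kg, 1 at 0.1 mg/kg and 4 in vehicle. The change at 50 mg/kg against vehicle was then -1.05 for Avpr1a, -0.93 and -0.94 for the probe sets of Qsox1, -0.75 for Depp1, -0.80 for Gdf11 on 1374706_at, -0.71 for Plaat3, -0.55 for Slc19a2 and -0.46 for Slc25a22. For Rasd2 on 1370372_at it was -0.54 with a 95% interval of -1.16 to 0.09, and for Pcmtd2 it was -0.27 (95% interval -0.55 to 0.01) on 1375916_at and -0.55 (95% interval -0.85 to -0.25) on 1374454_at. With so few arrays 3 probe sets of the whole array passed at 50 mg/kg, and none of the 13 did. The deviations of the 9 genes from their group means had correlations of -0.16 (Pcmtd2) to 0.36 (Depp1) with those of the Kupffer cell list over the 20 arrays, which share the normalization. With the muscle list they were -0.25 to 0.22 and with the pancreas list -0.55 (Qsox1) to 0.36, and over all 13 marker lists they ran from that value for Qsox1 to 0.59 (Gdf11 with the hepatocyte list).

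**Figure D4:**
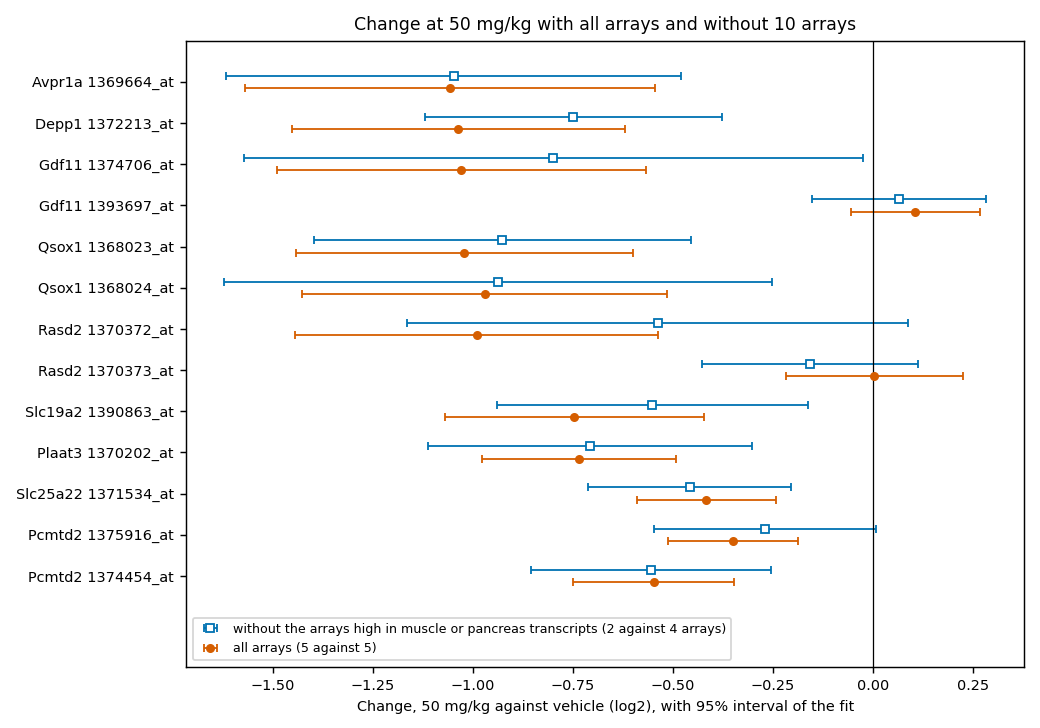
Change at 50 mg/kg against vehicle (horizontal axis, log2) of the 13 probe sets (vertical axis), as points with the 95% interval of the fit, with all arrays (5 against 5) and without the 10 arrays high in muscle or pancreas transcripts (2 against 4). Avpr1a stays near -1.05, Depp1 moves to -0.75 and Rasd2 1370372_at to -0.54, and intervals are wider without these arrays.

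Over the 36 pairs of the 9 genes, correlations of deviations from the group means ran from -0.49 (Qsox1 and Pcmtd2) to 0.61 (Rasd2 and Plaat3) with a median of 0.15 over the 20 arrays. Among 11300 to 11302 probe sets of other genes with a mean of at least 6, the closest pair by the same measure was Il6st (0.74) and Tmem59 (0.73) for Avpr1a, Asl and Npepps (0.79 each) for Depp1, and Vps9d1 and Plxnb2 (0.87 each) for Gdf11. For Qsox1 it was Prodh (0.70) and Dexi (0.67), for Rasd2 Hsd17b10 (0.84) and Cdip1 (0.78), and for Slc19a2 Gucd1 and Spata13 (0.80 each). For Plaat3 it was Taf6 (0.84) and Pald1 (0.74), for Slc25a22 Ube2g2 (0.85) and Cry1 (0.84), and for Pcmtd2 Mynn (0.87) and Gga2 (0.83). These are the highest of many correlations, and they are given as a description over 20 arrays. Of these genes Asl, an enzyme of the urea cycle, was called lower at 50 mg/kg (-0.55, SE 0.13, adjusted p = 0.0488, limma), and the call was kept in 4 of the 20 fits that left out 1 array.

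Of 141 genes listed beside these 9 for their pathways, 128 were measured, each read on its brightest single-symbol probe set. The shares of all probe sets set beside them also cover dimmer probe sets and those with no gene symbol. At 50 mg/kg against vehicle 1 of the 128 passed (0.781%, against 0.934% of all probe sets called in either direction). That gene, Pdk4, which restrains pyruvate oxidation in fasting and is a FOXO target like Depp1, rose by 1.04 (SE 0.12, adjusted p = 7.3e-05, limma), although without the muscle and pancreas arrays the call ended (0.94, adjusted p = 0.113, limma). At an unadjusted p under 0.05, 9 were higher (7.03%, against 6.89% of all probe sets) and 12 lower (9.38%, against 6.13%). At 15 mg/kg none passed, and 3 were higher (2.34%, against 7.6%) and 13 lower (10.2%, against 4.54%) unadjusted. At 0.1 mg/kg none passed, and 4 were higher (3.12%, against 3.88%) and 10 lower (7.81%, against 3%). Without vehicle replicate 1 the counts at 50 mg/kg were 2 higher and 2 lower, without vehicle replicate 4 or 50 mg/kg replicate 1 they were 2 higher and 0 lower, and without 50 mg/kg replicate 2, 15 mg/kg replicate 3 or 15 mg/kg replicate 4 they were 1 higher and 1 lower. The median change of the 128 genes was -0.03.

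The changes of the lists given here are those at 50 mg/kg against vehicle. No gene of the vasopressin and calcium list (12 measured, median change 0.04) or the oxidative folding list (13, median -0.02) passed. None passed in the Rhes list (10, median -0.02) or the repair methyltransferase list (9, median -0.02) either. In none of these lists was any gene at an unadjusted p under 0.05 at that dose, though some were at lower doses. In the FOXO and fasting list (16, median -0.14) the transcriptional repressor Bcl6 had a change of -0.57 (adjusted p = 0.0607, limma). In the activin and GDF list (19, median -0.07) Inhbb, an activin subunit, had -1.18 (adjusted p = 0.175, limma) and its antagonist Fst -0.51 (adjusted p = 0.413, limma). In the glucocorticoid list (10, median -0.16) Fkbp5 had -0.31 (adjusted p = 0.226, limma). Bckdhb, a subunit of the thiamine-dependent branched-chain dehydrogenase, had 0.36 in the thiamine list (11, median 0.06; adjusted p = 0.152, limma). Pla2g4a had -0.35 in the phospholipase list (11, median -0.07; adjusted p = 0.189, limma), and Slc25a1, the citrate carrier, had 0.58 in the carrier and glutamate list (17, median -0.02; adjusted p = 0.0785, limma). None of these changes passed.

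The nearest gene on each side of a member in the RefSeq order that had a single-symbol probe set was taken, 18 in all. Of these, 1 was called at 50 mg/kg, where 0.934% of all probe sets were called in either direction. That gene, Cd63 on the side of Gdf11, encodes a tetraspanin of endosomes and fell by 0.45 (SE 0.10, adjusted p = 0.0389, limma). Its call was kept in 11 of 20 fits that left out 1 array; it was lost without vehicle replicate 1, 2, 3 or 4 and without any of the 5 arrays at 50 mg/kg. Changes of the 18 ran from -0.45 to 0.52, with a median of -0.08, and none was called at 15 mg/kg.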

How the data were processed

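The authors deposited log2 intensities made with RMA from Affymetrix arrays, per the submitters' processing notes; the series holds 20 arrays, 5 in each of 4 groups, and the number of arrays limits the precision. RMA brings dim values together, so differences between dim probe sets are likely understated. Of 31099 probe sets in the table, 57 controls were left out and 31042 tested; 20826 had a single gene symbol, 436 several and 9780 none here. A linear model with a mean for each group was fitted to all 20 arrays (limma 3.58.1, R 4.3.3, two-sided moderated test), and p-values were adjusted by Benjamini-Hochberg over all probe sets for each comparison, with calls at 0.05. The 9 genes, their pathway lists and the marker lists were chosen with earlier results of these data known, so no p is given for the genes in the comparisons that chose them. The rule for named genes covered the 9 with all their probe sets and up to 2 per pathway list by the smallest p at 50 mg/kg. It also covered the nearest measured genes beside the 9, the 2 with the most similar deviations (mean of at least 6), and Cyp1a1. Not all of these are printed, and Wtap was named outside the rule. The fit was checked on simulated data. Replicate numbers did not pair arrays: same-numbered arrays of different groups had a median correlation of deviations of 0.00 (30 pairs, -0.36 to 0.29). Plots used matplotlib 3.10.9 (Python 3.11.15).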

Additional observations from a re-analysis of the deposited data

Results flagged for a closer look

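Of 52 groups of 5 arrays (13 probe sets in 4 groups), 3 held an array far from the others by Dixon's test at 95%; chance flags about 1 in 20 groups. Depp1 at 15 mg/kg had 7.071 in replicate 4, against 7.492 to 7.592 in the other 4 arrays. Gdf11 on 1393697_at at 50 mg/kg had 4.195 in replicate 3, against 3.896 to 3.965. Pcmtd2 on 1375916_at at 15 mg/kg had 8.33 in replicate 4, against 8.619 to 8.727.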

How the results depend on the processing

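Of 1790 recomputed values of the changes of member probe sets (68 changes), 1769 moved by less than the SD of the vehicle arrays or, where tested, stayed on their side of the threshold. Most came from fits without 1 array, which can shift a group mean only a little, so nothing is read from this number. Another 20 moved and 1 reversed, that of Depp1 at 15 against 0.1 mg/kg, which was 0.43 without the 10 muscle or pancreas arrays. Reversals were counted only for changes that were called or tested. Uncalled changes near 0 also switched sign, such as Plaat3 at 0.1 mg/kg (-0.06 with all arrays, 0.03 without vehicle replicate 5). Without the 10 muscle or pancreas arrays 3 probe sets were called at 50 mg/kg and 3 at 15 mg/kg, with 0 members and 0 related genes in each. The slope and the change at 15 against 0.1 mg/kg then rest on a lone 0.1 mg/kg array, so their counts are not given. A fit of the compared groups alone called 89 probe sets and 4 members at 50 mg/kg, and 11 and 0 at 15 mg/kg. With another quantile normalization 1 member was called at 15 mg/kg. At 15 against 0.1 mg/kg 1 member, Plaat3, was called with that normalization and with a mean of at least 6. It was also called with an intensity trend and robust shrinkage, and with a block by the first digit of the number describing each array. Plaat3 was chosen with the values at all doses known, so nothing is read from these calls, or from those with 1 array left out. Related genes called higher at 50 mg/kg were 2 with that block and with a mean of at least 6. With the replicate number as a block 235 probe sets and 10 members were called at 50 mg/kg, Cd63 lost its call (adjusted p = 0.0697, limma), and 1 related gene was higher at 15 mg/kg. The counts with all arrays were 290 at 50 mg/kg, 36 at 15 mg/kg, 0 at 0.1 mg/kg, 449 by slope and 28 at 15 against 0.1 mg/kg. When 1 array was left out, counts ranged from 106 to 276 at 50 mg/kg, 14 to 44 at 15 mg/kg, 0 to 1 at 0.1 mg/kg, 232 to 487 by slope and 19 to 33 at 15 against 0.1 mg/kg; members called lower ranged from 3 to 11, 0 to 2, 0 to 0, 9 to 11 and 0 to 1, and related genes from 1 to 2 higher and 0 to 2 lower at 50 mg/kg and 0 to 1 higher and 0 to 0 lower at 15 mg/kg. The count at 50 mg/kg moved by over 1.5 times without replicate 2, 3 or 4 of vehicle (180, 177, 137) or replicate 3, 4 or 5 of 50 mg/kg (181, 106, 152), that at 15 mg/kg without replicate 3, 4 or 5 of vehicle (20, 22, 23) or replicate 4 or 5 of 15 mg/kg (16, 14), and that by slope without replicate 4 of vehicle (282) or replicate 4 or 5 of 50 mg/kg (232, 284). The 1 call at 0.1 mg/kg came without replicate 4 of vehicle or replicate 3 of 0.1 mg/kg.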
